A study of Mus musculus with 6 samples.

Results

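The levels of 95 transporter genes were compared between control and Bcas2-deficient mouse islet samples, which the labels give as beta cells (insulin secretion is their task). The genes were chosen by name from the 54532 genes of the deposited table: protein-coding members of the solute carrier subfamilies Slc1, Slc2, Slc3, Slc5, Slc6, Slc7, Slc16, Slc36, Slc38 and Slc43 with a value above 0 in at least 1 library, leaving out Slc2a2 and Slc16a1. Of 103 matching genes, those 2 were left out by name, and 6 were at 0 in every library (Slc6a14, Slc6a18, Slc7a9, Slc7a12, Slc7a13 and Slc36a3). Slc7a6os matches the names but is no transporter. It is a separate gene beside Slc7a6 and is counted among the 95.

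RNA-seq was done on 3 control libraries (genotype wt) and 3 libraries of a Bcas2 conditional knockout (genotype Cko, here Bcas2 cKO); the design text of the series speaks of a knockdown. BCAS2 works in the spliceosome as part of the Prp19 complex. Which Cre was used, which exons it removes, and the age and sex of the mice were not given in the sources used here. No label says that each library is from its own animal, and the p-values rest on library-to-library spread that may be technical. The control columns are numbered 1, 3 and 4 as in the labels, but the Bcas2 cKO columns are numbered 3, 4 and 5 where the labels have 1, 3 and 4. Library 5 therefore entered the analysis by its group name alone, and results are also given without it.

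Values were FPKM, fragments scaled by gene length and library depth, which allow levels to be compared between genes. Reads on genes, as recovered from these values, numbered 15170439 to 15594871 in each control library and 16351800 to 16904326 in each Bcas2 cKO library. Bcas2 itself was 10.3, 15.0 and 11.2 FPKM in control libraries 1, 3 and 4 and 8.76, 8.40 and 9.14 FPKM in Bcas2 cKO libraries 3, 4 and 5, lower without overlap but not past the test (log2 fold change -0.42 with SE 0.13, limma adjusted p 0.083). Of 10 beta cell markers none was at 0, and their summed level was 166008 to 265442 FPKM in the controls and 108928 to 128745 FPKM in Bcas2 cKO. Most of that sum is Ins1 and Ins2, neither past the test (limma adjusted p 0.44 and 0.38). Of the 10, 2 (Ucn3 and Slc30a8) were called lower and 0 higher, where 7.55% and 6.97% of all tested genes were. Without overlap, 5 were lower and 2 (Mafa and Pcsk1) higher, where 21.1% and 16.8% of all tested genes were. Markers of other cells were present too. Those of islet alpha, delta and PP cells summed to 32624.6 to 38399.3 FPKM in the controls and 37317.5 to 40318.3 FPKM in Bcas2 cKO. These ranges overlapped, but the share of recovered reads on these 12 genes was higher in every Bcas2 cKO library than in any control. Of the 12, 2 (Irx1 and Irx2) were called higher and 0 lower. The sum of 21 acinar markers was 4509 to 10661 FPKM in the controls and 13150 to 41034 FPKM in Bcas2 cKO, highest in library 5. Of 11 tested macrophage and lymphocyte markers, 6 were called higher and 0 lower, though Cd79a was lower without overlap. The sum of 11 endothelial markers was 128 to 154 FPKM in the controls and 126 to 163 FPKM in Bcas2 cKO. Ductal markers summed to 258 to 311 FPKM in the controls and 512 to 654 FPKM in Bcas2 cKO, and red blood cell markers to 34.7 to 47.6 and 76.1 to 89.0 FPKM. Immediate early and heat shock genes, which respond to handling of tissue, summed to 725 to 2007 FPKM in the controls and 4517 to 5736 FPKM in Bcas2 cKO. Of these 11 genes, 8 were called higher, where 6.97% of all tested genes were, as for the other markers above. The part of these shifts in the results was not tested, and in bulk samples fewer cells of a type and less RNA per cell cannot be told apart.

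Solute carriers move small molecules across membranes. Amino acids enter cells through sodium-coupled carriers (Slc1, Slc6, Slc38), through facilitated carriers (Slc43 and the cationic carriers of Slc7), and through exchangers in which an Slc7 light chain is bound to an Slc3 heavy chain. Some of the Slc36 carriers work with protons, often at lysosomes. Sugars pass through the GLUT proteins (Slc2) or with sodium (Slc5), and lactate, pyruvate and related compounds through the MCT proteins (Slc16). In beta cells, arginine and other amino acids depolarize the membrane or feed metabolism and so raise insulin secretion.

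These islet samples held few abundant carriers of each kind. Averaged over the 6 libraries, 16 members reached 10 FPKM, and 26 members were under 0.1 FPKM. Slc2a5, which encodes the fructose carrier GLUT5, had the highest mean (82.6 FPKM). It was followed by the cationic amino acid carrier gene Slc7a2 (78.9 FPKM), the sodium-coupled carrier gene Slc38a4 (69.7 FPKM), Slc38a10 (53.3 FPKM), the exchanger heavy chain gene Slc3a2 (48.5 FPKM) and Slc16a10, for the aromatic amino acid carrier TAT1 (46.0 FPKM). Slc2a5 took 82.8% of the summed Slc2 level and Slc3a2 98.6% of the Slc3 level. The 5 members with sodium- or proton-coupled monocarboxylate transport as their known role (Slc5a8, Slc5a12, Slc16a3, Slc16a7 and Slc16a8) came to 1.61 ± 0.419 FPKM together in the controls and 1.72 ± 0.367 FPKM in the Bcas2 cKO samples (SD, n = 3 each), with Slc16a1 left out.

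**Figure D1:**
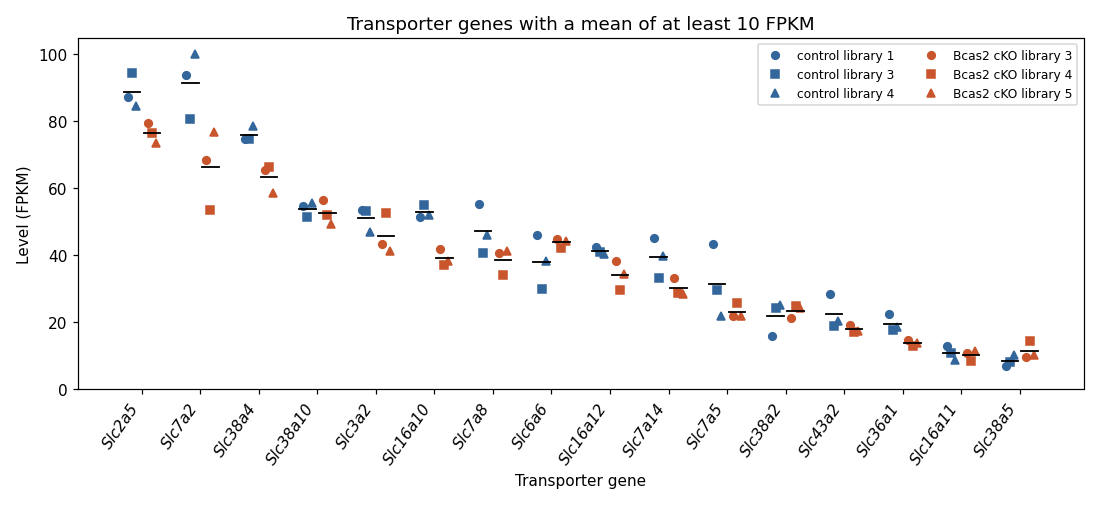
Level in FPKM (vertical axis, from 0) of the 16 transporter genes that average 10 FPKM or more, in order of their mean. Each point is 1 library, its shape gives the library number, and black lines are the means of 3 libraries. Of these genes Slc16a10 and Slc36a1 passed the test, both lower in Bcas2 cKO.

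Members with a mean of at least 1 FPKM, 43 of the 95, were tested on log2(FPKM + 1) with limma within a fit of 13723 genes. The lowest tested member was Slc5a7 at 1.01 FPKM and the highest untested one Slc38a9 at 0.979 FPKM. At a Benjamini-Hochberg adjusted p under 0.05, 4 members rose in Bcas2 cKO (Slc7a7, Slc1a5, Slc6a8 and Slc2a13) and 5 fell (Slc1a4, Slc6a19, Slc36a1, Slc16a10 and Slc5a6). These 9 were 20.9% of the tested members, against 14.5% of all tested genes. By direction, 9.3% of the tested members rose against 6.97% of all genes, and 11.6% fell against 7.55%. Control and Bcas2 cKO values did not overlap for 19 tested members. In 9 of them (20.9%) Bcas2 cKO was higher, against 16.8% of all tested genes, and in 10 (23.3%) it was lower, against 21.1%. The median log2 fold change of the tested members was -0.09 and that of all tested genes -0.03. Slc1 and Slc6 each held 1 rise and 1 fall. The abundant members lay mostly below 0: of the 16 that averaged 10 FPKM or more, 13 had a negative log2 fold change (median -0.26, 2 called lower), where 59.2% of all 4353 genes at that level were negative (median -0.06). These values hold for the deposited scaling. With each library's total of recovered reads as its depth, the median of the tested members was 0 and that of all tested genes 0.09. The 16 were not counted again at that depth.

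**Figure D2:**
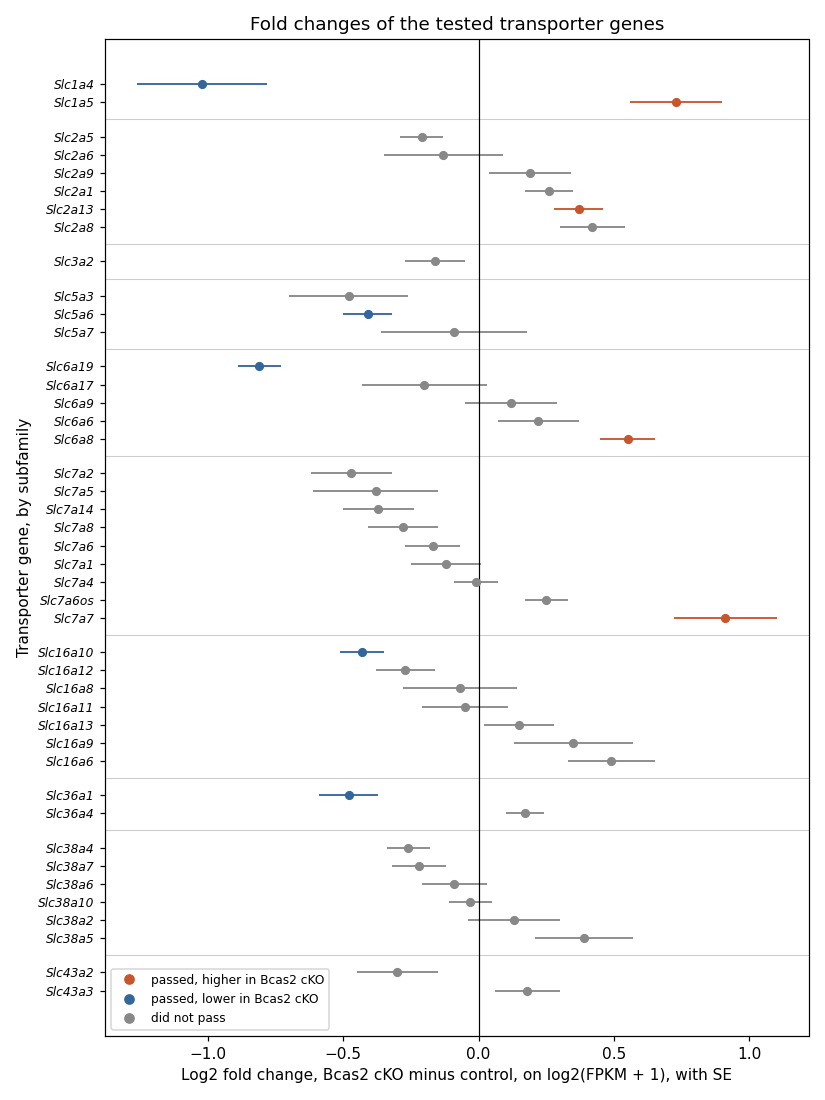
Log2 fold change on the log2(FPKM + 1) scale, Bcas2 cKO minus control (horizontal axis), of the 43 tested transporter genes grouped by subfamily (vertical axis). Bars are SE; orange and blue points passed the limma test as higher (4 genes) and lower (5 genes), grey points did not.

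Slc6a19 kept its call when each library was left out in turn. The other 8 called members kept their direction, but each lost its call in 3 to 6 of the 6 fits. Without library 5, Slc6a19 alone passed (limma adjusted p 0.012), with adjusted p of 0.0596 to 0.124 for the other 8. The count of 4 rises was 1 without control library 3 and 0 without control library 4 or Bcas2 cKO libraries 3 or 5. The count of 5 falls was 2 without control library 4 or Bcas2 cKO libraries 3 or 4, and 1 without library 5. The scaling between libraries mattered as well. With each library's total of recovered reads as its depth, the median log2 fold change of all tested genes moved from -0.03 to 0.09, and then 6 members rose and 2 fell, with Slc5a6, Slc16a10 and Slc36a1 no longer past the test.

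**Figure D3:**
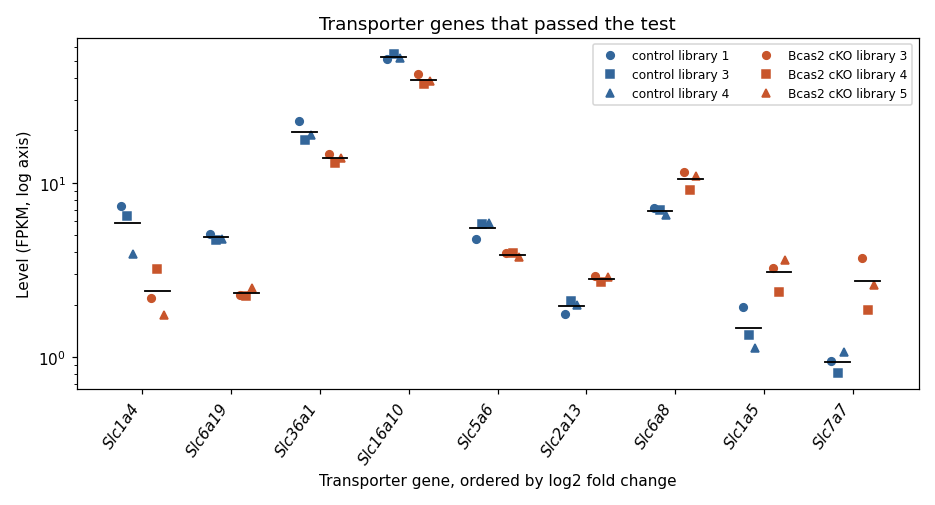
Level in FPKM (vertical axis, logarithmic) of the 9 transporter genes that passed the test, ordered by log2 fold change from Slc1a4 (-1.02) to Slc7a7 (0.91). Each point is 1 library and black lines are the means of 3 libraries; no gene has overlapping groups.

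Of the Slc1 subfamily, carriers of glutamate and of neutral amino acids, the 2 tested members moved in opposite directions. Slc1a4 (ENSMUSG00000020142, chromosome 11, 20302180 to 20332713, GRCm38) encodes ASCT1, an exchanger of alanine, serine and other small neutral amino acids. It was 7.39, 6.45 and 3.88 FPKM in control libraries 1, 3 and 4 and 2.19, 3.21 and 1.74 FPKM in Bcas2 cKO libraries 3, 4 and 5. All Bcas2 cKO values lay below the lowest control value, which was that of library 4. The log2 fold change was -1.02 (SE 0.24, limma adjusted p 0.034), and the mean fell to 0.403 times that of control. The call was lost without control library 1 or 3 and without Bcas2 cKO library 3 or 5. Slc1a5 (chromosome 7, 16781340 to 16798274) encodes ASCT2, an exchanger that also carries glutamine. It rose from 1.95, 1.33 and 1.13 FPKM to 3.25, 2.37 and 3.63 FPKM, a ratio of means of 2.10 (log2 fold change 0.73 with SE 0.17, limma adjusted p 0.036). Its call was lost without control library 3 or 4 and without Bcas2 cKO library 3 or 5. The 5 glutamate carrier genes Slc1a1, Slc1a2, Slc1a3, Slc1a6 and Slc1a7 were all under 0.2 FPKM in each library and were not tested.

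Slc6 carriers couple sodium and chloride to the uptake of transmitters, osmolytes and amino acids. Slc6a19 (chromosome 13, 73679745 to 73704865) encodes B0AT1, a carrier of neutral amino acids that is best known from gut and kidney. It was 5.11, 4.68 and 4.79 FPKM in control libraries 1, 3 and 4 and 2.26, 2.24 and 2.50 FPKM in Bcas2 cKO libraries 3, 4 and 5. The values were close together within each group and far apart between them. The mean fell to 0.480 times that of control (log2 fold change -0.81 with SE 0.08, limma adjusted p 0.0026). The antisense gene Slc6a19os lies within the same locus but shares 0 exonic bases with it in GENCODE M21. Slc6a19os was 4.64 ± 0.516 FPKM in the controls and 3.79 ± 1.28 FPKM in Bcas2 cKO, short of the threshold (limma adjusted p 0.38). Collectrin (Cltrn), a protein known to bring B0AT1 to the cell surface, did not pass it either, with 253 ± 9.68 FPKM for the controls and 241 ± 4.02 FPKM for Bcas2 cKO (SD, n = 3 each).

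Slc6a8 (chromosome X, 73673150 to 73682502), the creatine carrier gene, was 7.16, 6.97 and 6.51 FPKM in the controls and 11.6, 9.10 and 11.0 FPKM in Bcas2 cKO. It rose 1.53 times between the means (log2 fold change 0.55 with SE 0.10, limma adjusted p 0.016). Its call was lost without control library 4, without Bcas2 cKO library 3 or 5, and when the libraries were rescaled without the hormone genes (limma adjusted p 0.0576). Gatm and Gamt, the enzymes of creatine synthesis on the gene list, also passed the test, Gamt narrowly (limma adjusted p 0.048). Slc6a6, the taurine carrier gene and the most abundant Slc6 member, was 46.0, 30.0 and 38.3 FPKM in the controls and 44.9, 42.3 and 44.4 FPKM in Bcas2 cKO. Its groups overlapped, with the widest spread in control (log2 fold change 0.22 with SE 0.15, limma adjusted p 0.36). The carrier genes of serotonin (Slc6a4), dopamine (Slc6a3) and noradrenaline (Slc6a2) were under 0.05 FPKM in each library.

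Slc7 members are the cationic amino acid carriers and the light chains of the exchangers. Slc7a7 (chromosome 14, 54369442 to 54417780) encodes the y+LAT1 light chain, which exchanges cationic for neutral amino acids. It was 0.951, 0.805 and 1.07 FPKM in control libraries 1, 3 and 4 and 3.71, 1.87 and 2.61 FPKM in Bcas2 cKO libraries 3, 4 and 5. Every Bcas2 cKO value was above every control value, and the ratio of means was 2.90 (log2 fold change 0.91 with SE 0.19, limma adjusted p 0.024). The call was lost without control library 3 or 4 and without Bcas2 cKO library 3 or 5. Slc7a7 is also expressed in macrophages. The macrophage gene Cd68 rose from 2.11 ± 0.368 to 5.62 ± 0.643 FPKM, the largest log2 fold change among the 11 tested macrophage and lymphocyte markers. Of these 11, 6 rose and 5 were not called (C1qa, Csf1r, Lyz2, Laptm5 and Cd79a). The sum of all 13 markers overlapped between the groups (104.6 to 130.4 and 128 to 156 FPKM). Its largest part, C1qa, overlapped too (limma adjusted p 0.41). The 12 markers other than the B cell gene Cd79a came to 102, 116 and 96.5 FPKM for the controls and 153, 121 and 143 FPKM for Bcas2 cKO. These did not overlap. Cd79a, lower without overlap, was left out after seeing the values, so that separation decides nothing. The neighbouring gene Oxa1l lies on the other strand and shares 232 of the 3315 exonic bases of Slc7a7. Oxa1l rose as well, from 7.45 ± 0.697 to 13.0 ± 1.31 FPKM (limma adjusted p 0.0066), and the sources used here leave unstated whether the counting was stranded. The part of macrophage RNA and of Oxa1l reads in the rise of Slc7a7 was not tested.

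The other exchanger parts did not pass the test. Slc3a2, the heavy chain CD98 that most light chains need at the membrane, was 53.5, 53.2 and 47.0 FPKM in the controls and 43.4, 52.7 and 41.3 FPKM in Bcas2 cKO, with overlap (log2 fold change -0.16 with SE 0.11, limma adjusted p 0.37). Slc7a5, the LAT1 light chain for large neutral amino acids, ranged from 21.8 to 43.2 FPKM within control alone and from 21.8 to 25.9 FPKM in Bcas2 cKO (log2 fold change -0.38 with SE 0.23, limma adjusted p 0.30). Slc7a8, the LAT2 light chain, was 47.3 ± 7.34 and 38.7 ± 4.05 FPKM, and Slc7a6, the y+LAT2 light chain, 5.65 ± 0.638 and 4.91 ± 0.447 FPKM. Slc7a10 and the cystine exchanger gene Slc7a11 stayed under 0.5 FPKM in each library and were not tested. Summed over these 6 light chains, the level was 105, 77.5 and 74.1 FPKM in the control samples and 71.8, 67.4 and 70.7 FPKM in the Bcas2 cKO samples, in the same library order, and Slc7a7 was a small part of it in every library.

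The cationic carrier gene Slc7a2, which takes up arginine and lysine, was 93.8, 80.5 and 100.2 FPKM in the controls and 68.5, 53.7 and 76.9 FPKM in Bcas2 cKO. The groups did not overlap, but the difference missed the threshold (log2 fold change -0.47 with SE 0.15, limma adjusted p 0.086). It passed with voom on the recovered reads and when the libraries were rescaled without the hormone genes. Slc7a14, a lysosomal member of the family, was 39.5 ± 5.97 and 30.1 ± 2.80 FPKM (limma adjusted p 0.098), and Slc7a4 was 8.88 ± 0.692 and 8.81 ± 0.548 FPKM (limma adjusted p 0.95). Of the 9 tested Slc7 members, 7 had a log2 fold change below 0, Slc7a7 rose, and Slc7a6os was above 0 without passing the test.

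Slc36 and Slc38 carriers handle small neutral amino acids and glutamine at the cell surface and at lysosomes. Slc36a1 (chromosome 11, 55204350 to 55236330) encodes PAT1, which exports amino acids from lysosomes together with protons. It was 22.6, 17.6 and 18.7 FPKM in control libraries 1, 3 and 4 and 14.6, 12.9 and 13.8 FPKM in Bcas2 cKO libraries 3, 4 and 5. It fell to 0.701 times the control mean with no overlap (log2 fold change -0.48 with SE 0.11, limma adjusted p 0.031). Its call was lost on leaving out control library 4 or any one of the Bcas2 cKO libraries, and with quantile normalization or total reads as the depth. Slc36a4, the other tested Slc36 member and a carrier of proline and tryptophan, was 6.44 ± 0.164 FPKM in the controls and 7.40 ± 0.394 FPKM in Bcas2 cKO, higher without overlap but not past the test (log2 fold change 0.17 with SE 0.07, limma adjusted p 0.15).

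The 6 tested Slc38 members had limma adjusted p of 0.0859 to 0.815. Slc38a4, a carrier of neutral and cationic amino acids, was 76.0 ± 2.26 and 63.4 ± 4.18 FPKM (log2 fold change -0.26 with SE 0.08, limma adjusted p 0.086). The lysosomal glutamine exporter gene Slc38a7 was 8.07 ± 0.965 and 6.75 ± 0.404 FPKM, also lower without overlap. Slc38a2, for a carrier that amino acid starvation is known to induce, was 21.8 ± 4.997 and 23.5 ± 1.85 FPKM, and Slc38a10 53.9 ± 2.31 and 52.7 ± 3.52 FPKM, both with overlap. The Slc38a10 difference (log2 fold change -0.03 with SE 0.08) changed sign with quantile normalization and with total reads as the depth. Slc38a9, the lysosomal arginine sensor of mTORC1, was 0.955, 0.905 and 0.795 FPKM in the controls and 1.16, 1.05 and 1.003 FPKM in Bcas2 cKO and was not tested. Neither tested Slc43 member passed, with 22.6 ± 5.10 and 17.9 ± 1.16 FPKM for Slc43a2 (LAT4) and 5.01 ± 0.246 and 5.87 ± 1.14 FPKM for the purine nucleobase carrier gene Slc43a3.

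Among the sugar carriers of Slc2, Slc2a13 (chromosome 15, 91267696 to 91573261) was the member that passed. It encodes HMIT, which takes up myo-inositol with protons. It was 1.76, 2.11 and 1.99 FPKM in the controls and 2.91, 2.68 and 2.86 FPKM in Bcas2 cKO, a ratio of means of 1.44 (log2 fold change 0.37 with SE 0.09, limma adjusted p 0.044). The rise was small and the call was lost whichever library was left out, with quantile normalization and when the libraries were rescaled without the hormone genes. Slc2a8, for the intracellular hexose carrier GLUT8, was 6.25, 6.12 and 4.48 FPKM in the controls and 7.58, 7.90 and 7.90 FPKM in Bcas2 cKO. It narrowly missed the threshold (log2 fold change 0.42 with SE 0.12, limma adjusted p 0.058) and passed it over genes of at least 5 FPKM, with library weights, with voom and with total reads as the depth. Slc2a5 was 87.3, 94.5 and 84.7 FPKM in the controls and 79.3, 76.6 and 73.5 FPKM in Bcas2 cKO, lower without overlap but not past the test (log2 fold change -0.21 with SE 0.08, limma adjusted p 0.14). Slc2a1, the GLUT1 glucose carrier gene, was 3.17 ± 0.215 and 3.99 ± 0.403 FPKM (log2 fold change 0.26 with SE 0.09, limma adjusted p 0.11).

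Of the 13 Slc5 members, which use sodium to take up sugars, vitamins, iodide, choline and other solutes, 3 could be tested and 1 passed. Slc5a6 (chromosome 5, 31036036 to 31048924), for the uptake of biotin and pantothenate, was 4.79, 5.83 and 5.90 FPKM in the controls and 3.96, 3.93 and 3.73 FPKM in Bcas2 cKO. It fell to 0.704 times the control mean (log2 fold change -0.41 with SE 0.09, limma adjusted p 0.031). Its call was lost on leaving out any library other than control library 1, and with total reads as the depth. Atraid, on the other strand, shares 396 exonic bases with it and was 33.0 ± 3.90 and 30.8 ± 2.01 FPKM, which did not pass the test (limma adjusted p 0.60). Slc5a3, a myo-inositol carrier gene, was 0.757, 1.84 and 1.87 FPKM in the controls and 0.641, 0.635 and 0.962 FPKM in Bcas2 cKO, so control library 1 lay among the Bcas2 cKO values. It missed the threshold (log2 fold change -0.48 with SE 0.22, limma adjusted p 0.20), but passed without control library 1. The sodium-glucose carrier genes Slc5a1 and Slc5a2 were at most 0.51 FPKM in any library.

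Of 7 tested Slc16 members Slc16a10 passed. Slc16a10 (chromosome 10, 40033532 to 40142258), for the tryptophan, tyrosine and phenylalanine carrier TAT1, was 51.4, 54.997 and 52.2 FPKM in the controls and 42.0, 37.0 and 38.3 FPKM in Bcas2 cKO. The mean fell to 0.740 times that of control with a tight spread in both groups (log2 fold change -0.43 with SE 0.08, limma adjusted p 0.019). Its call was lost without control library 4 and without Bcas2 cKO library 4 or 5, and with total reads as the depth. Slc16a12, a creatine carrier gene, was 42.5, 40.9 and 40.3 FPKM in the controls and 38.4, 29.6 and 34.4 FPKM in Bcas2 cKO, lower without overlap but not past the test (log2 fold change -0.27 with SE 0.11, limma adjusted p 0.13). Slc16a6, for the carrier MCT7, was 3.64, 2.25 and 2.48 FPKM in the controls and 5.03, 3.90 and 3.95 FPKM in Bcas2 cKO (log2 fold change 0.49 with SE 0.16, limma adjusted p 0.083). Slc16a11 and Slc16a13, whose genes lie 372 bases apart on chromosome 11, were 10.8 ± 2.03 and 10.3 ± 1.57 FPKM and 2.61 ± 0.573 and 2.97 ± 0.104 FPKM, with no test passed.

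The 52 members under a mean of 1 FPKM were not tested. Of these 52, 11 had groups that did not overlap (10 higher and 1 lower in Bcas2 cKO). Of all genes at such levels, 12.3% did not overlap in either direction, and their share by direction was not worked out. More genes were above 0 in each Bcas2 cKO library (25525 to 27064) than in any control library (22894 to 24226). The lean to higher values is therefore not read as a trait of these members. Slc38a3, a glutamine carrier gene, had 37, 17 and 14 reads in control libraries 1, 3 and 4 and 77, 88 and 203 reads in Bcas2 cKO libraries 3, 4 and 5, with most in library 5, which also had the highest acinar sum. Slc5a10, a mannose and fructose carrier gene, had 20, 10 and 9 reads in control and 48, 35 and 38 reads in Bcas2 cKO. Slc16a5 had 40, 19 and 26 reads in control and 89, 53 and 81 reads in Bcas2 cKO. These 3 were chosen for mention after their values were seen.

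Summed over the 95 members, the level was 779 to 858 FPKM in the controls and 701 to 738 FPKM in Bcas2 cKO, a ratio of means of 0.882. The Slc7 sum was 212 to 267 FPKM in the controls and 172 to 198 FPKM in Bcas2 cKO (ratio 0.794), and the Slc16 sum 114 to 122 and 90.3 to 110 FPKM (ratio 0.848). The Slc6 sum was higher in Bcas2 cKO by 1.11 times with overlapping groups, and its most abundant member, Slc6a6, held 66.9% of it. These sums have no test, and they depended on the scaling. With quantile normalization the sums over all members, Slc2, Slc7 and Slc16 overlapped between the groups (all members 737 to 884 and 688 to 766). With total reads as the depth every sum overlapped, the ratio over all members was 0.972, and the ratios of Slc2 (1.02) and Slc38 (1.04) turned above 1, whereas Slc7 (0.873) and Slc16 (0.937) remained below 1.

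**Figure D4:**
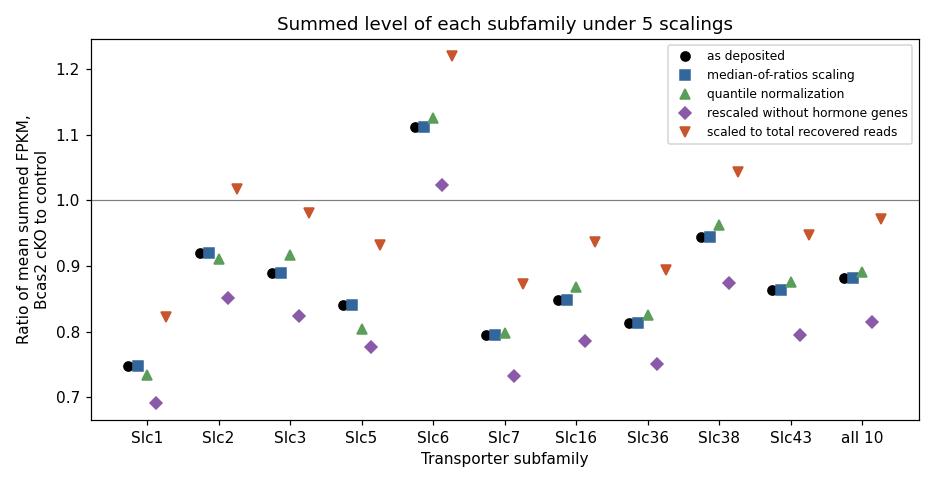
Ratio of the mean summed FPKM in Bcas2 cKO to that in control (vertical axis) for each subfamily and for all 10 together, under 5 scalings of the libraries. Of these, median-of-ratios scaling repeats the ratios of the deposited values and is no separate scaling. Slc2 and Slc38 lie below 1 under 4 scalings and above 1 with total recovered reads as the depth; Slc6 lies above 1 and the other 7 subfamilies below 1 under all 5.

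Promoters of the called members were read from RefSeq (GRCm38.p6), 250 bases before to 50 bases after the RefSeq start, and 7 of the 9 were found there. RefSeq's start is not always that of the deposited gene: the nearest entry lay 12229 bases from it for Slc6a19, 362 for Slc5a6 and 78 for Slc7a7 (of 5 entries), and at most 10 for the other 4. They were searched on both strands for TGATGNAA, the element bound by C/EBP and ATF factors such as ATF4, for the E-box CACGTG, and for GTTAAT, a half-site of HNF1. TGATGNAA was in 3.77% of 20481 promoters and in 2 of the 34 tested members with a promoter (5.88%). Those 2 were Slc1a4, which fell, and Slc7a7, which rose. CACGTG was in 7.68% of all promoters and 14.7% of the tested members, and Slc36a1 held it at 2 places. GTTAAT was in 6.48% of all promoters and in 2 of the tested members (5.88%), which were Slc16a10 and Slc36a1. Slc1a4 and Slc7a7 are shown because both hold TGATGNAA and moved in opposite directions, and Slc36a1 because it holds both other motifs. Capitals mark the motifs, and a match is a description of the letters and not a bound site. In Slc1a4 the match (on the opposite strand) begins 4 bases before the start, in Slc7a7 it begins 243 bases before it, and in Slc36a1 GTTAAT begins 243 and CACGTG 31 and 3 bases before it. The regions are chr11:20332664-20332963 (minus strand), chr14:54417653-54417952 (minus strand) and chr11:55204090-55204389 (plus strand).
Slc1a4: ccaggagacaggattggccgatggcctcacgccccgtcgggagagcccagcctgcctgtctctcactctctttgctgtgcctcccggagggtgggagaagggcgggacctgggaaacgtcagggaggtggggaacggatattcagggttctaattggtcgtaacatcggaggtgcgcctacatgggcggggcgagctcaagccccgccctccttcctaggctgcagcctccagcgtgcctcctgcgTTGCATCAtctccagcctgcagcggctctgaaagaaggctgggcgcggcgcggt
Slc7a7: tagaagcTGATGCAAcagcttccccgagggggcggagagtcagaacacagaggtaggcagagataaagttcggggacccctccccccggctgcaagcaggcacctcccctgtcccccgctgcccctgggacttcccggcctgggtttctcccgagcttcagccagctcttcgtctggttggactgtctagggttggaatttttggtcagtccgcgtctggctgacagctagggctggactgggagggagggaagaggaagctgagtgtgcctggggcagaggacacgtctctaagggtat
Slc36a1: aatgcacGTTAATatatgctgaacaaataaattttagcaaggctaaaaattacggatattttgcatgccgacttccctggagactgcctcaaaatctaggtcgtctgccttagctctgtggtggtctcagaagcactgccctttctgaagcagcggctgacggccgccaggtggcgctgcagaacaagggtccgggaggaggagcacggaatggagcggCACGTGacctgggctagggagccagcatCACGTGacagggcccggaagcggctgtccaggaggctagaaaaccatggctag

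Other genes of amino acid and sugar handling were taken from 4 gene lists, with 86 genes tested. Of these 6 rose and 11 fell, 19.8% against the 14.5% of all tested genes. By direction, 6.97% of all tested genes rose and 7.55% fell, and the counts of each list stand against these shares. On the list of the amino acid response, the program run by ATF4 in amino acid shortage or stress, 1 of 20 tested genes rose and 3 fell (median log2 fold change -0.02). Without overlap, 6 were higher and 5 lower, where 16.8% and 21.1% of all tested genes were. The list summed to 409 to 515 FPKM in the controls and 565 to 793 FPKM in Bcas2 cKO. Cebpb, a transcription factor gene that is also induced early by many stimuli, rose from 12.5 ± 7.42 to 47.3 ± 9.17 FPKM beside the rise of the immediate early genes, whose part in it was not tested. The mitochondrial folate enzyme gene Mthfd2 fell from 14.1 ± 3.96 to 6.99 ± 1.52 FPKM, the proline synthesis gene Pycr1 from 7.59 ± 1.18 to 5.35 ± 0.418 FPKM, and the lipoprotein receptor gene Vldlr from 7.68 ± 1.62 to 3.16 ± 0.385 FPKM. Atf4 itself was 122 ± 41.3 and 162 ± 21.4 FPKM, which missed the threshold (limma adjusted p 0.27), nor did the asparagine synthetase gene Asns at 30.9 ± 6.49 and 20.9 ± 3.53 FPKM (limma adjusted p 0.090). Larger differences that were not called went both ways, each without overlap. Atf3 (log2 fold change 2.09, limma adjusted p 0.11), Ddit3 (0.72, limma adjusted p 0.082) and Ddit4 (0.69, limma adjusted p 0.11) were higher. Chac1 was lower (-0.92, limma adjusted p 0.080). Atf4, Asns, Atf3, Ddit3, Ddit4 and Chac1 were named after their values were seen.

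Of 29 tested genes of amino acid sensing by mTORC1, the kinase complex that lysosomal amino acids switch on, 1 rose and 4 fell (median log2 fold change -0.12). Mtor, the kinase gene, was 6.62, 5.55 and 6.34 FPKM in control libraries 1, 3 and 4 and 18.3, 17.7 and 23.4 FPKM in Bcas2 cKO libraries 3, 4 and 5, a ratio of means of 3.21 (log2 fold change 1.53 with SE 0.12, limma adjusted p 0.0018). The falls were those of Rragd, Flcn, Fnip1 and Tsc1. Rragd, a Rag GTPase, fell from 15.997 ± 0.297 to 9.11 ± 1.05 FPKM, and Flcn, folliculin, which acts on the Rag GTPases, from 36.3 ± 0.784 to 23.3 ± 2.38 FPKM. Tsc1, of the complex that restrains mTORC1, fell from 8.89 ± 1.12 to 6.44 ± 0.477 FPKM. Whichever library was left out, Mtor, Rragd, Flcn and Vldlr were still called. Fnip1, which binds folliculin, fell by 0.36 on the log2 scale. The other Rag genes (Rraga, Rragb and Rragc) and the 5 Lamtor genes of the Ragulator complex on the list did not pass the test, with limma adjusted p of 0.059 for Rragc to 0.70 for Rragb.

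Of 14 tested partners and regulators of carriers, 2 rose and 1 fell (median log2 fold change -0.01). Txnip, an arrestin that removes GLUT1 from the cell surface, rose from 232 ± 21.9 to 308 ± 1.24 FPKM, and Sgk1, a kinase that acts on many carriers, from 8.497 ± 2.49 to 15.8 ± 2.92 FPKM. Emb, embigin, a partner of the monocarboxylate carriers, fell from 40.0 ± 2.91 to 29.8 ± 0.354 FPKM. Of 23 tested enzymes of amino acid, creatine and sugar use, 2 rose and 3 fell (median log2 fold change 0.09). Gatm and Gamt, the successive enzymes of creatine synthesis, rose from 12.4 ± 2.15 to 20.9 ± 1.75 FPKM and from 1.65 ± 0.777 to 5.01 ± 2.19 FPKM. Gamt had 2.40, 1.69 and 0.849 FPKM in control libraries 1, 3 and 4 and 3.17, 4.45 and 7.43 FPKM in Bcas2 cKO libraries 3, 4 and 5, the same order as the acinar marker sum, and it lost its call in 6 of 11 other settings, with a pseudocount of 0.1 among them. Gatm had 10.5, 11.9 and 14.7 FPKM in the controls and 19.3, 20.7 and 22.8 FPKM in Bcas2 cKO, in the same library order. That is the reverse of the order of the acinar sum within control and the same order within Bcas2 cKO. Gatm is also abundant in acinar cells, and the part of acinar RNA in both rises was not tested. Glul, glutamine synthetase, fell from 164 ± 21.6 to 109 ± 12.7 FPKM, and Khk, the fructose kinase, from 18.1 ± 2.85 to 10.9 ± 1.36 FPKM. The third fall, Gclm, was by 0.29 on the log2 scale.

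Over the 4 lists, the 6 rises became 10 when control library 1 was left out, 3 when it was control library 3, 2 for control library 4, 1 for Bcas2 cKO library 4 and 2 for library 5. The 11 falls became 6 and 4 on leaving out control libraries 3 and 4, and 3, 5 and 6 on leaving out Bcas2 cKO libraries 3, 4 and 5. With total reads as the depth, 11 rose and 5 fell. Besides the 4 genes that kept their calls, each named list gene that passed lost its call on leaving out 2 to 6 of the 6 libraries, Pycr1 and Gclm in all 6 and Gatm in 2, those without Bcas2 cKO libraries 4 or 5.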

How the data were processed

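Trizol extraction and a SMARTer library kit were used, per the labels' protocols, with GRCm38 (mm10) as the build in the submitters' processing notes. The sources used here name no aligner, counting program or strand setting. The authors deposited FPKM, 1 column per library, per the file headers. Multiplied by gene length, 100% of the values above 0 gave whole reads within 0.01 of a read. Depths implied by the deposited FPKM lay at 0.890 to 1.11 times the recovered totals, so the authors rescaled the libraries (method not given in the sources used here). Median-of-ratios scaling left the group ratio of every subfamily sum as deposited, so the deposited values were already level by that measure. Over 15 pairs of libraries, the chi-square per degree of freedom was at least 13.6, so no library duplicated another.

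The fit took genes averaging 1 FPKM or more and tested them on log2(FPKM + 1), which understates changes of low genes, with limma 3.58.1 (trend) in R 4.3.3; calls had a Benjamini-Hochberg adjusted p under 0.05. On simulated data of 13723 genes with the means and depths of this comparison, the share of changed genes recovered was 21.0% at a log2 fold of 0.5, 85.0% at 1 and 98.9% at 2. Only 200 genes were changed in each of 3 simulated sets, with the same dispersion for every gene. In the real fit 14.5% of genes were called, so these shares do not carry over directly. Members, lists and tests were chosen with earlier results of these data known. The rule named all called members, the 2 most abundant of each subfamily, the 4 largest differences that were not called, the exchanger chains, and up to 4 called genes per list; others are described more briefly. Of the 95 members, 93 had the same coordinates in GENCODE M21. Alternatives are given in the closing section. Python 3.11.15 with pandas 2.3.3 and matplotlib 3.10.9 made the tables and plots.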

Additional observations from a re-analysis of the deposited data

How the results depend on the processing

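The 4 rises and 5 falls among transporters were the same in number with a pseudocount of 0.1, and with eBayes without trend or with robust estimation. They were also the same with median-of-ratios scaling, but that setting is no separate check. It changed all libraries by nearly the same factor and left the ratio over all members at 0.882, as deposited. Rises and falls were 1 and 2 with no filter, 2 and 2 over genes of at least 5 FPKM, 3 and 4 with quantile normalization, 2 and 6 when rescaled without the hormone genes, 7 and 5 with library weights, 6 and 6 with voom on recovered reads, and 6 and 2 with total recovered reads as the depth, which was chosen after seeing the data. Over all genes, 1393 rose and 425 fell with that depth against 957 and 1036 as deposited, and 613 and 1247 when rescaled without the hormone genes. Leaving out 1 library gave 0 to 4 rises and 1 to 5 falls among transporters, and 1 to 10 rises and 3 to 9 falls over the 4 lists. For the lists, rises and falls were 2 and 4 with no filter and 11 and 5 with total reads, and falls were 17 over genes of at least 5 FPKM, 18 with voom and 21 when rescaled without the hormone genes. The replicate block could use numbers 3 and 4 alone, whose libraries deviated with correlations of -0.149 and 0.045, so the numbers were not taken as a pairing. With that replicate block 0 transporters rose and 1 fell (Slc6a19), and 2 list genes rose and 2 fell; it uses 4 libraries. Slc38a10 turned to 0.01 with quantile normalization, 0.11 with total reads, 0.02 with the replicate block, and -0.08 to 0.01 on leaving out 1 library (0.01 without Bcas2 cKO library 5). Depth limits the 26 members under 0.1 FPKM to few reads each.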
